A study of Homo sapiens with 6 samples.

Results

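DEAD and DEAH box helicases are ATP-driven enzymes that bind, unwind, clamp or remodel RNA, and they are named after the amino acids of a conserved motif, Asp-Glu-Ala-Asp or Asp-Glu-Ala-His. The genes described here are the protein-coding genes of RefSeq GRCh38.p14 on chromosomes 1 to 22 and X whose symbol is DDX or DHX followed by a number and optional letters, with 1 gene of that pattern left out. They numbered 52 of 19974 protein-coding genes, 36 named DDX and 16 named DHX, and were spread over 18 chromosomes. The rule used the symbol alone and no measured value. Whether each protein carries the motif was not checked here.

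Peaks of SON and HMGB2 at these genes were read from ChIPmentation of IMR90, a line of fibroblasts grown from human embryonic lung. ChIPmentation recovers chromatin with an antibody and tags it with sequencing adapters on the beads. SON was mapped in untreated cells and in cells given ICM, a treatment the labels do not expand, for 3 or 6 days. HMGB2, a chromatin protein that bends DNA, was mapped in untreated cells. Cells for SON were fixed for 10 min with 1% formaldehyde, and cells for HMGB2 were fixed for 20 min with 1.5 mM EGS, a protein crosslinker, and then with formaldehyde, so target and fixation cannot be told apart between the SON and HMGB2 lists. All groups are the same line, and the peak lists hold no expression value against which the cell type could be checked.

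SON is a scaffold protein of nuclear speckles, the bodies that store splicing factors and lie next to many active genes. It carries a G-patch, a short motif with which other proteins bind and activate DEAH helicases. Helicases of the family act at nearly every stage of RNA life: some rearrange the spliceosome, many act in ribosome assembly in the nucleolus, and others work in mRNA export, translation, decay, antiviral sensing or mitochondria. The series was made to relate SON and HMGB2 to the architectural protein CTCF and to gene expression.

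There was 1 peak list for each of the 4 groups, so no difference between conditions could be tested, and no p-value is given. On the chromosomes named above, the untreated SON list held 22216 peaks, the 3-day list 11028, the 6-day list 5481 and the HMGB2 list 5992. Their depth is unknown, since they hold no read counts. Strength below is the authors' −log10 p of a peak, which for SON is the lower of the values of 2 replicates, and the rank of a peak counts from 1 at the strongest in its own list. Strength and rank describe a peak within its list and show no change between lists. A gene carried a peak when at least 1 bp of it lay in the gene's span or within 5 kb. Intervals are 95% exact binomial (Clopper-Pearson) and cover counting error only.

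The sequences that the peaks cover are shown first, as the 250 bases before the start of the gene, taken from RefSeq (GRCh38.p14) and written 5′ to 3′ on the strand of the gene. The first 4 belong to the genes with the highest mean strength percentile over the 4 lists among those whose window no other gene covers, and the last 2 to genes without a peak in any list and with such a clear window. This choice was made after the values were seen. Capitals mark matches to the motifs searched.
DDX41, chr5:177516962-177517211, minus strand: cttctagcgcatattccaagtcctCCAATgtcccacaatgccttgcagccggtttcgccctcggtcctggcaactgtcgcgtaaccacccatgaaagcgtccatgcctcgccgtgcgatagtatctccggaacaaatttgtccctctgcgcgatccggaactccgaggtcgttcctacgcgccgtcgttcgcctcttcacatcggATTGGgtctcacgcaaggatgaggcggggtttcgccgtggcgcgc
DDX17, chr22:38506312-38506561, minus strand: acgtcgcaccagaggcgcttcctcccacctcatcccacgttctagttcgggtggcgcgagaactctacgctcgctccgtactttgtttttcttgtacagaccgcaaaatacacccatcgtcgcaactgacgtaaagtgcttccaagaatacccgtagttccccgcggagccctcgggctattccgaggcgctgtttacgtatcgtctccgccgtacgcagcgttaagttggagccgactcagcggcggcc
DDX39A, chr19:14419384-14419633, minus strand: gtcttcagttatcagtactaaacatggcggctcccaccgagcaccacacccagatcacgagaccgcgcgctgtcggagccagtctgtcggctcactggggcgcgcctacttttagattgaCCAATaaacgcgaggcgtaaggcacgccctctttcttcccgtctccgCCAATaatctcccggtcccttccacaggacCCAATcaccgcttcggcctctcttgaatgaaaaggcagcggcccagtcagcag
DHX8, chr17:43483725-43483974, plus strand: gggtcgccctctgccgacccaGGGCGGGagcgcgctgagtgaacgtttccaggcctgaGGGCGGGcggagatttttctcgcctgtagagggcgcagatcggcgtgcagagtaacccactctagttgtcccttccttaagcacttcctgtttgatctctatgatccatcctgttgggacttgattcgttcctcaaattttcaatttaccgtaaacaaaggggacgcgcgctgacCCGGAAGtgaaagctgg
DDX55, chr12:123601849-123602098, plus strand: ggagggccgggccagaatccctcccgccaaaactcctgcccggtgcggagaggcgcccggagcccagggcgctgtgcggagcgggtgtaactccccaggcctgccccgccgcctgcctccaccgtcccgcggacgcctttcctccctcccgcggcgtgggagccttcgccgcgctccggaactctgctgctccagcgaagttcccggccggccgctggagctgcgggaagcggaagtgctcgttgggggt
DHX37, chr12:124989132-124989381, minus strand: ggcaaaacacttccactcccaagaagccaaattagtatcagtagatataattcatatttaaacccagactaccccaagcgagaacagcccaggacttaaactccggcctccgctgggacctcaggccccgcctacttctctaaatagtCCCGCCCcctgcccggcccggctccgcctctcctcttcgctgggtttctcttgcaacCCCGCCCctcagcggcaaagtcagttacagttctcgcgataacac
Peaks of all 3 SON lists covered the whole 250 bases at DDX41, DDX39A and DHX8, and at DDX17 the 6-day peak covered 248 of them. The HMGB2 peaks covered 250 bases at DDX41 and DDX17, 208 at DDX39A and 165 at DHX8. No peak touched the windows of DDX55 and DHX37.

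The motifs were searched on both strands of these 250 bases at the 47 members with an entry in the promoter table and at all 15812 protein-coding genes with one. They were CCAAT (bound by NF-Y), CCGGAAG (ETS factors), AAGATGG (YY1), GGGCGGG (SP and KLF factors), TATAAA (the TATA box), the palindrome of NRF1, the palindrome bound by BANP and the core of the CTCF motif, and matches of different motifs may overlap. The ETS motif was held by 15 of 47 members (31.9%), against 11.8% of all promoters and 15.9% of the promoters of genes with an untreated SON peak. CCAAT was held by 21 members (44.7%, all promoters 34.4%), and GGGCGGG by 19 (40.4%, all promoters 42.9%). AAGATGG was found at 4 members (8.51%, all promoters 3.35%), the NRF1 motif at 2 (4.26%, all promoters 1.49%) and TATAAA at 2 (4.26%, all promoters 9.25%). The CTCF core was found at 3 members, DDX47, DHX16 and DHX38 (6.38%, all promoters 5.23%), and the BANP motif at none (all promoters 0.588%). Among promoters of genes with an untreated SON peak, 36.6% held CCAAT, 49.8% GGGCGGG, 3.61% AAGATGG and 5.92% TATAAA. The NRF1 motif, the CTCF core and the BANP motif were held by 2.28%, 5.62% and 0.903% of them. A match is a run of letters and was not tested as a site.

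In the sequences printed, DDX39A held CCAAT 3 times, between 130 and 49 bases before its start, and DDX41 held it once on each strand, 226 to 222 and 45 to 41 bases before its start. DHX8 held GGGCGGG at 229 to 223 and 192 to 186 bases before its start, and CCGGAAG 17 to 11 bases before it. DDX17 held none of the motifs, and its strongest peaks stood at the 98.3, 90.7, 80.6 and 93.3 percentile of the untreated, 3-day and 6-day SON lists and the HMGB2 list. DHX37, without a peak, held GGGCGGG at 102 to 96 and 45 to 39 bases before its start, and DDX55 held none. The ratio of observed to expected CpG in these windows had a median of 0.85 over the 47 members and 0.737 over all promoters. At the promoters of genes with an untreated SON peak the median ratio was 0.818. It was 0.92 (range 0.651 to 1.41) at the 13 members with a peak in all 3 SON lists and a table entry, and 0.722 (0.617 to 0.849) at the 6 members without any peak. Over all genes without a peak the median was 0.443, below every one of those 6 members. GC content had a median of 60.8% at members and 62.4% over all promoters.

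A SON peak was present at most helicase genes in untreated cells and at fewer in the later, shorter lists. In untreated cells 45 of the 52 genes carried one (86.5%, 74.2 to 94.4%), against 57.1% of all protein-coding genes. At 3 days 35 did (67.3%, 52.9 to 79.7%), against 41.0% of all genes, and at 6 days 16 did (30.8%, 18.7 to 45.1%), against 21.5%. HMGB2 peaks were present at 19 genes (36.5%, 23.6 to 51.0%), against 23.3%. At 6 days the SON interval of the members held the share of all genes, and in untreated cells and at 3 days it lay above. For HMGB2 the lower end, 23.6%, was close to the 23.3% of all genes. Members are genes and not replicates, so these intervals are no test of the family against all genes. Members have a median span of 31.1 kb against 24.2 kb for all genes, and longer spans meet more peaks. In spans under 20 kb the untreated share was 81.2% of 16 members and 45.7% of all genes, and in spans of 20 to 50 kb 91.3% of 23 members and 62.7%. In spans over 50 kb it was 84.6% of 13 members and 69.2%, while at 3 days in this class members (46.2%) did not exceed all genes (49.7%), nor at 6 days (23.1% and 28.5%).

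**Figure D1:**
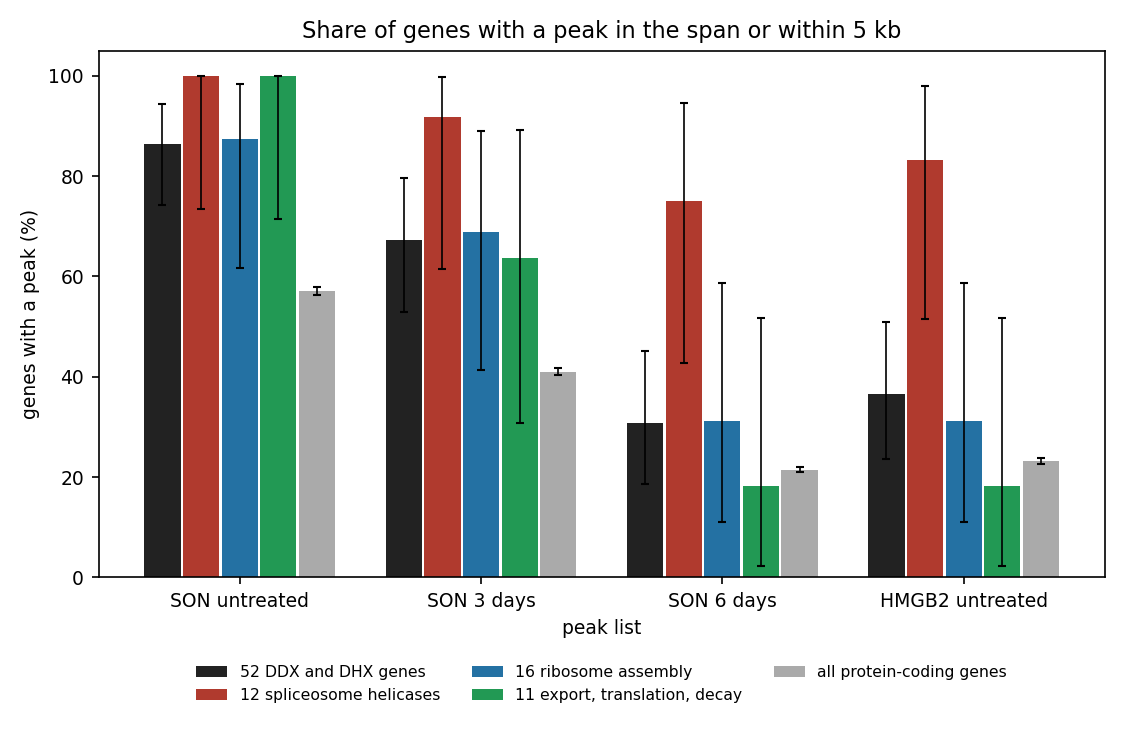
Percentage of genes with a peak in the span or within 5 kb, by peak list, for all DDX and DHX genes, the larger role lists among them and all protein-coding genes. Bars are shares and error bars exact 95% binomial intervals; in the 6-day SON and HMGB2 lists the spliceosome helicases stand at 75% and 83.3%, and the other groups between 18.2% and 36.5%.

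No member entered only with a later list. Each of the 35 genes with a SON peak at 3 days and each of the 16 at 6 days carried one in untreated cells, and each of the 16 also carried one at 3 days. Over all genes these shares were 97.8%, 98.6% and 94.7%. A peak in all 3 SON lists was thus present at 16 members (30.8%, all genes 20.3%), in untreated cells and at 3 days only at 19 (36.5%, all genes 19.8%), and in untreated cells only among the SON lists at 10 (19.2%, all genes 16.1%). None had a peak in untreated cells and at 6 days but not at 3 days (all genes 0.956%). No member had a SON peak in a later list and none in untreated cells (0 of 52, upper bound 6.85%, all genes 1.1%). These counts are by gene and not by place. Counted by peak, 38 of the 42 member peaks at 3 days (90.5%, all peaks 91.6%) overlapped an untreated SON peak. The others lay at DHX15, DHX30, DHX32 and DHX40, and DHX30, DHX32 and DHX40 had no other 3-day peak. All 19 member peaks at 6 days overlapped an untreated one (100%, all peaks 88.9%).

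How many genes were found in each SON list depended on how peaks were selected. Each list was cut to as many of its strongest peaks as the 6-day list holds. Then 20, 24 and 16 members carried a peak in the untreated, 3-day and 6-day lists, against 26.2%, 27.2% and 21.5% of all genes. A peak in all 3 lists was left at 13 members, against 15% of all genes. Peaks were also kept by their global irreproducible discovery rate (IDR), the expected share of peaks that do not repeat between replicates. At a global IDR of 0.05 or less the numbers were 36, 21 and 3 (69.2%, 40.4% and 5.77%). The shares of all genes were 45.0%, 24.0% and 5.02%. The 3 genes left at 6 days were DDX10, DDX49 and DHX34.

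**Figure D2:**
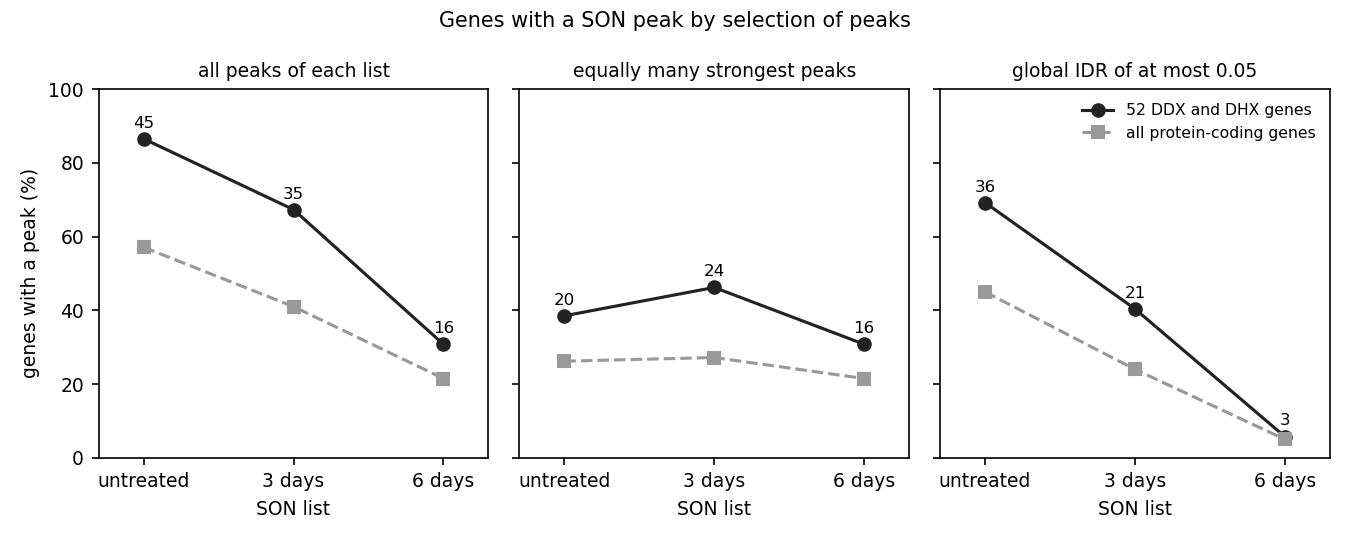
Percentage of genes with a peak in each of the 3 SON lists, for the DDX and DHX genes (circles, with their number) and all protein-coding genes (squares); the panels keep every peak, equally many strongest peaks per list, or peaks of global IDR up to 0.05. The order 45, 35, 16 became 20, 24, 16 with equally many peaks.

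Helicases of the spliceosome, which rearrange its RNAs and proteins at each step of splicing, made up 9 of the 16 members with a 6-day SON peak and 10 of the 19 with an HMGB2 peak. All 12 genes of this list had a SON peak in untreated cells, 11 had one at 3 days and 9 at 6 days, and 10 had an HMGB2 peak (83.3%, 51.6 to 97.9%). The other 40 members had 33, 24 and 7 genes with a SON peak, and 9 with an HMGB2 peak. In the untreated list 100% of the 12 and 82.5% (67.2 to 92.7%) of the other 40 stood above the 57.1% of all genes. In the 3-day list 91.7% of the 12 and 60.0% (43.3 to 75.1%) of the other 40 stood above 41.0%. For the 6-day and HMGB2 lists, the shares of the other 40 stood near those of all genes. They were 17.5% (7.34 to 32.8%) beside 21.5%, and 22.5% (10.8 to 38.5%) beside 23.3%. The strongest untreated SON peak had a median percentile of 93.9 over the 12 spliceosome genes, 70.5 over the 45 members with a peak and 72.1 over all genes with one. Keeping peaks of global IDR up to 0.05, the untreated, 3-day and 6-day lists left 11, 9 and 0 of the 12. Of the other 40 they left 25, 12 and 3 (62.5%, 30.0% and 7.5%), beside 45.0%, 24.0% and 5.02% of all genes. The larger 6-day share of the spliceosome list was thus lost at a cut that few genes passed at 6 days. With equally many strongest peaks, the lists left 10, 9 and 9 of the 12 and 10, 15 and 7 of the other 40. The shares of all genes were then 26.2%, 27.2% and 21.5%. The spliceosome list holds only genes that fit the symbol rule. Of related helicases outside that rule, SNRNP200 had no peak in any list and EIF4A3 had one in all 4. AQR had SON peaks in untreated cells and at 3 days, and none at 6 days or for HMGB2. The role lists were drawn up with results of these data known, and the difference between them was not tested.

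**Figure D3:**
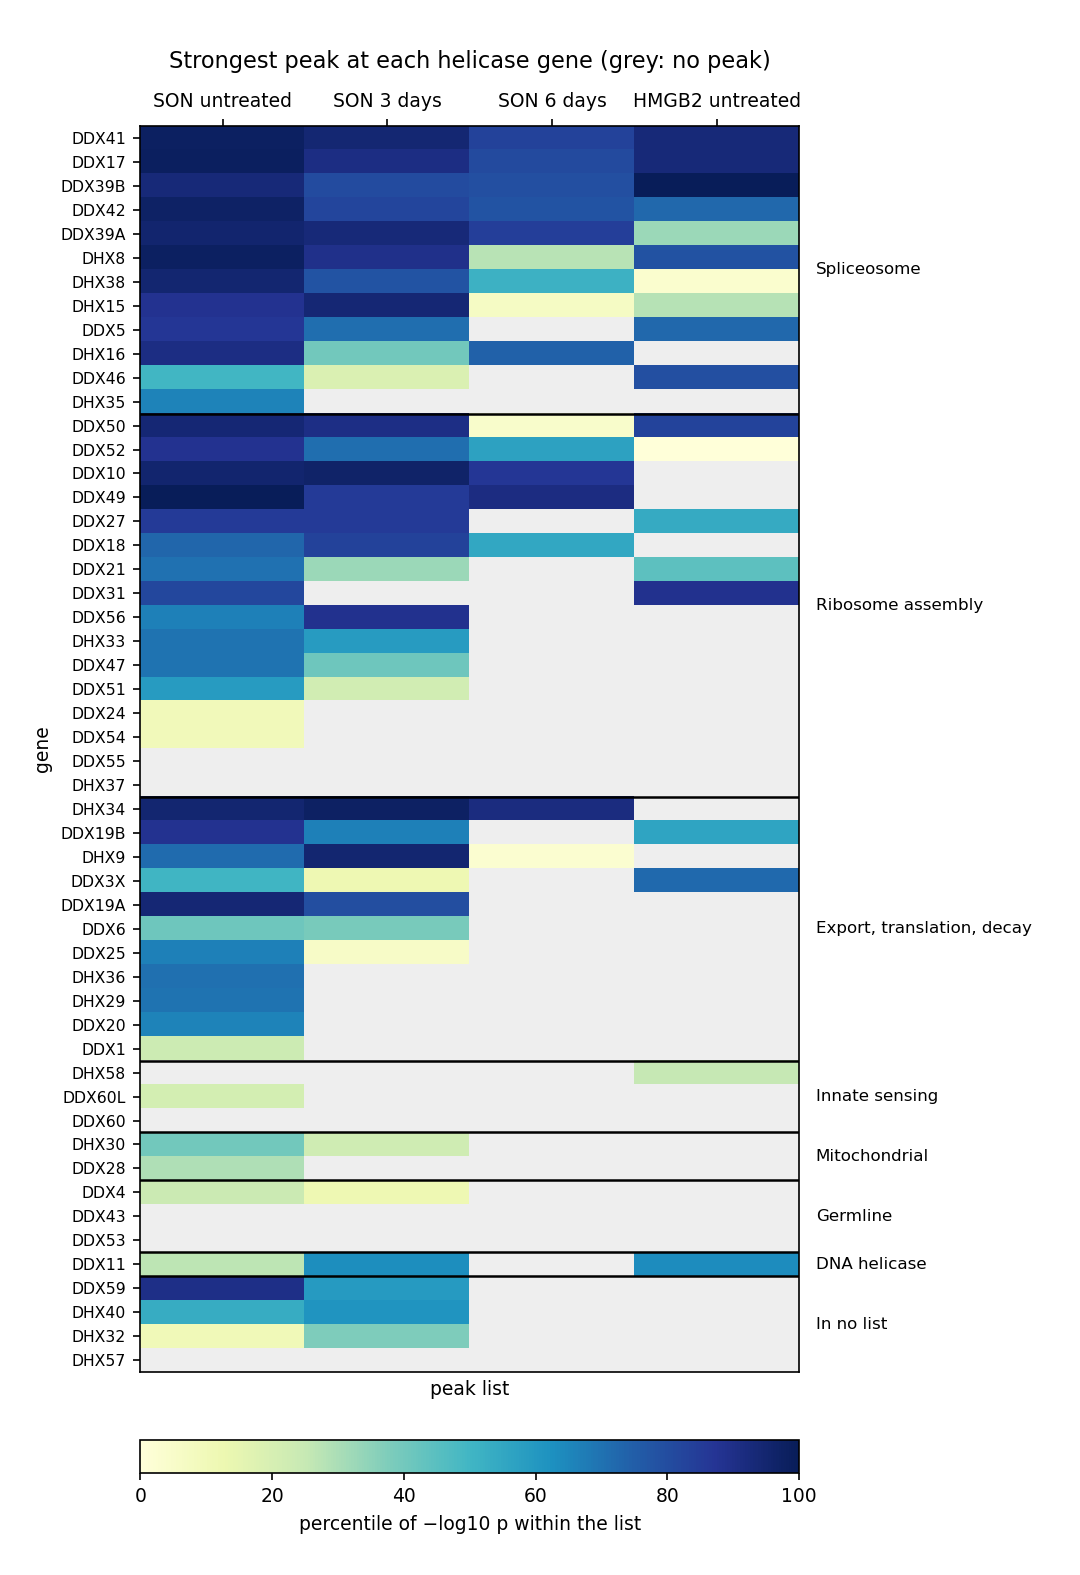
Percentile of −log10 p, within its list, of the strongest peak at each of the 52 genes (rows, by role list) in the 4 peak lists (columns), with grey for no peak. Dark cells run across all 4 columns at the top of the spliceosome block, and most rows of the lower blocks are grey at 6 days.

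DDX41, a helicase found in spliceosomes, had the highest mean percentile over the 4 lists, 92.1. Its untreated SON peak lay at chr5:177516790-177517452 (hg38), over the start of the gene. SON gave it a −log10 p of 50.5 in untreated cells (rank 461), 32.6 at 3 days (rank 610) and 12.2 at 6 days (rank 936), and its HMGB2 peak 19 (rank 411) with a fold enrichment of 6.72. DDX17, an RNA-binding coregulator of splicing and microRNA processing, stood next with SON peaks of 55.2 (rank 385), 23.3 (rank 1023) and 11.7 (rank 1061) and an HMGB2 peak of 19.3 (rank 399). The lowest percentile of either gene in any list was 80.6, that of DDX17 at 6 days.

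The paralogs DDX39B and DDX39A join splicing to mRNA export. DDX39B had SON peaks of 29.7 (rank 1544), 15 (rank 2171) and 11.4 (rank 1154) at its start and an HMGB2 peak of 62.2, which with rank 38 and a fold enrichment of 10.3 was the strongest HMGB2 peak of the family. DDX39A had SON peaks of 35.6 (rank 1035), 27.8 (rank 759) and 12.5 (rank 866) and a weak HMGB2 peak of 8.15 (rank 4034). In the HMGB2 list the pair stood at the 99.4 and 32.6 percentile, and in the 6-day SON list at the 79 and 84.2 percentile.

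Helicases bound to U2 snRNP or its partners differed. DDX42 had SON peaks of 43.6 (rank 644), 15.8 (rank 1980) and 11.2 (rank 1201) and an HMGB2 peak of 12.1 (rank 1645), all of them also within 1 kb of the start of CCDC47. DDX46, which acts when U2 joins the branch site, had SON peaks of 9.87 in untreated cells, beyond its span near C5orf24, and of 8.91 at its own start, 6.71 at 3 days and none at 6 days, with an HMGB2 peak of 13.4 (rank 1251). Its strongest SON peaks stood at the 49.8 and 18.5 percentile of their lists, and its HMGB2 peak at the 79 percentile.

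The DEAH helicases that drive activation, catalysis, mRNA release and disassembly of the spliceosome, DHX16, DHX38, DHX8 and DHX15, carried a peak in all 3 SON lists. DHX8, which releases the mRNA, had SON peaks of 49.5 (rank 487), 21.4 (rank 1169) and 7.22 (rank 3971) and an HMGB2 peak of 13.3 (rank 1291). DHX38, which acts before the second step, had SON peaks of 34.0 (rank 1149), 14.1 (rank 2415) and 8.61 (rank 2665) and an HMGB2 peak of 5.31 near the bottom of its list (rank 5798), all shared with the start of TXNL4B. DHX15, which takes the spliceosome apart, had SON peaks at its start of 22.9 (rank 2693), 30.1 (rank 682) and 5.86 (rank 5138) and an HMGB2 peak of 7.79 (rank 4318). DHX16 had SON peaks of 26.5 (rank 1998), 8.18 (rank 6619) and 10.7 (rank 1427) and no HMGB2 peak. At 6 days the peaks of DHX8 and DHX15 sat at the largest IDR of the list, 0.63, and those of DHX38 and DHX16 at 0.303 and 0.115, so none of the 4 passed 0.05 there.

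DDX5, the close relative of DDX17, had no SON peak at 6 days. Its peaks in untreated cells had a −log10 p of 21.6 (rank 3018) at its start and 19.5 (rank 3729) beyond its span near the start of POLG2, and at 3 days of 6.48 and 12.1 at the same places. It carried 5 HMGB2 peaks, from 5.74 to 12.1, of which 3 lay near the start of POLG2. As many were found at 0.436% of all genes, and no other member had more than 2. At least 2 HMGB2 peaks were present at 4 members (7.69%, all genes 6.11%), DDX5, DDX17, DDX31 and DDX3X. DHX35, another DEAH protein found in spliceosomes, had 1 SON peak in untreated cells of 12.8 (rank 7619) and none later.

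Helicases of ribosome assembly, which act on pre-ribosomal RNA in the nucleolus, had shares close to those of the family as a whole. Of 16 genes, 14 had a SON peak in untreated cells (87.5%, all genes 57.1%), 11 at 3 days (68.8%, all genes 41.0%) and 5 at 6 days (31.2%, all genes 21.5%). HMGB2 peaks were present at 5 (31.2%, all genes 23.3%). DDX49 held the strongest untreated SON peak of the family, 80.8 (rank 161, chr19:18919274-18919852), with 17.7 at 3 days (rank 1614) and 15.2 at 6 days (rank 485), and no HMGB2 peak. That peak lay within 1 kb of the start of COPE. DDX10 had peaks of 34.5 (rank 1116), 40.5 (rank 434) and 13.2 (rank 730) at its start. It had another set far inside the gene, 264 kb beyond the start, of 31.0 (rank 1412), 10.9 (rank 3865) and 10.7 (rank 1411), so both places were found in all 3 SON lists and neither in the HMGB2 list.

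DDX50 and DDX21 are paralogs that lie side by side on chromosome 10, and no peak was shared between them. DDX50 had SON peaks of 31.5 (rank 1359), 23 (rank 1042) and 5.65 (rank 5236) and an HMGB2 peak of 14.4 (rank 1040), all at its start. At DDX21 the only peak at its own start was a SON peak of 11 in untreated cells, and its peaks of 14 in untreated cells, 7.66 at 3 days and 9.07 for HMGB2 lay beyond its span, near the start of KIFBP. DDX52 held the most SON peaks of any member, 4 in the untreated list and 3 in each later one, with strengths of 10.8 to 23.1, 7.88 to 12 and 7.22 to 8.98. The 6-day peaks lay on untreated peaks, and its strongest untreated peak, near the start of SYNRG, was missing there. DDX18 had SON peaks of 14.8, 16.3 and 8.83 and no HMGB2 peak.

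Among the other ribosome assembly genes, DDX27, DDX47, DDX51, DDX56 and DHX33 carried SON peaks in untreated cells and at 3 days. DDX56 had 13 (rank 7432) in untreated cells and 20.6 (rank 1260) at 3 days, and DDX27 had 20.8 and 17.7, with an HMGB2 peak of 9.86. DDX24 and DDX54 carried only weak untreated peaks, each of 5.98 at the largest IDR of that list. DDX31 had 3 SON peaks in untreated cells, the strongest of 18.4 (rank 4152) lying 22.4 kb inside the gene and a weak one of 5.95 at its start. Its 2 HMGB2 peaks of 16.5 and 16.3 (ranks 683 and 710) lay at that start, which GTF3C4 shares, so the order of strength of the 2 places differed between SON and HMGB2. DDX55 and DHX37 had no peak in any list.

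Of 11 genes for helicases of export, translation and decay, all had a SON peak in untreated cells (all genes 57.1%), 7 at 3 days (63.6%, all genes 41.0%) and 2 at 6 days (18.2%, all genes 21.5%). HMGB2 peaks were present at 2 (18.2%, all genes 23.3%), so these last shares stood near the background. DHX34, a helicase of nonsense-mediated decay, had SON peaks at its start of 33.2 (rank 1206), 53.1 (rank 269) and 15.5 (rank 463), the last 2 being the strongest of the family at 3 days and at 6 days, and had no HMGB2 peak. DHX9, which unwinds RNA and RNA-DNA duplexes, had 14.5 (rank 6306), 34.9 (rank 562) and 5.37 (rank 5327), and the last of these sat at the largest IDR. These were the only genes of the list with a 6-day peak.

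DDX19A and DDX19B, neighbouring paralogs that release mRNA at the nuclear pore, did not share their peaks. DDX19A had SON peaks of 31.7 (rank 1341) and 14.6 (rank 2280) at its start. At DDX19B the peaks of 23 in untreated cells, 11.2 at 3 days and 10.1 for HMGB2 lay within 1 kb of the start of AARS1, and only a further untreated SON peak of 8.30 lay inside the gene. DDX3X, a translation factor, had SON peaks of 9.90 and 6.20 with summits 972 and 1263 bp beyond its start, and HMGB2 peaks of 12 and 6.81. DDX6, a repressor of translation and partner of mRNA decay, had SON peaks of 8.77 and 8.10 with summits 1162 and 1217 bp upstream, and DDX25, a helicase of the testis, had 13 and 5.64 beside the start of PUS3.

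DHX36, which unwinds G-quadruplexes, DHX29, which helps ribosomes scan, DDX20, a subunit of the SMN complex, and DDX1, a partner of the tRNA ligase, had SON peaks only in untreated cells. Their strongest peaks were 14.1 (rank 6561) for DHX36, 13.9 (rank 6750) for DHX29, 12.9 (rank 7574) for DDX20 and 7.10 (rank 17080) for DDX1. Among the 10 members found in no later SON list, only DDX31 had a stronger peak than DHX36. The DHX29 peak lay at a start shared with MTREX and the DDX20 peak at one shared with INKA2.

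Of the helicases with roles outside these lists, an untreated SON peak was present at 1 of 3 of innate sensing, both of the mitochondrial ones, 2 of 4 of the germline and DDX11 (all genes 57.1%), and none had a 6-day peak. DHX58, an RNA sensor of the innate response, was the only member with an HMGB2 peak, of 7.65 (rank 4448), and no SON peak (all genes 1.52%). DDX60L had 2 untreated SON peaks of 6.93 and 5.71, both at the largest IDR, and its neighbour DDX60 had none. The mitochondrial ribosome assembly factors DDX28 and DHX30 had strongest untreated peaks of 7.57 and 8.68, and DHX30 had 1 peak of 6.99 at 3 days at another place. Of the germline helicases, which include DDX25 described above, DDX43 and DDX53 had no peak, and DDX4 had SON peaks of 7.15 and 6.19 that lay 49.6 and 49.7 kb beyond its table start. DDX11, a DNA helicase of sister chromatid cohesion, had SON peaks of 7.39 and 10.7 and an HMGB2 peak of 10.9.

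Of the genes in no role list, DDX59 had SON peaks of 24.9 (rank 2247) and 11 in untreated cells and of 6.48 and 10.2 at 3 days, on both sides of its start. DHX40 had 10.4 in both lists, but at its start in untreated cells and 18.8 kb inside the gene at 3 days. DHX32 had weak peaks of 6.05 and 8.03, and DHX57 had none. Without a peak in any list were thus 6 members, DDX43, DDX53, DDX55, DDX60, DHX37 and DHX57 (11.5%, all genes 40.3%). Reads from near-identical copies, such as those of DDX11 and DDX3X, may be placed at either copy, and how the aligner treated them is not given in the sources used here.

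Where a start was known, most members with a peak had one within 1 kb of it. Of the 47 members with a table start, 37 (78.7%) had an untreated SON peak within 1 kb of it, against 41.1% of all genes with a start. At 3 days 25 did (53.2%, all genes 29.0%), at 6 days 13 (27.7%, all genes 12%), and for HMGB2 15 (31.9%, all genes 15.1%). All 13 members with a table start and a 6-day peak had it there, while 52.5% of all genes with a 6-day peak did. The summit of the strongest peak, where within 1 kb, lay upstream of the start in 28 of 33 members in untreated cells, 23 of 23 at 3 days, 13 of 13 at 6 days and 11 of 14 for HMGB2. The medians were 89, 107, 122 and 88 bp upstream, and over all genes 97, 109, 131 and 106 bp. Upstream summits made up 86.2%, 86.6%, 88.6% and 80.9% of those of all genes in the same order, so this position was shared with other genes.

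**Figure D4:**
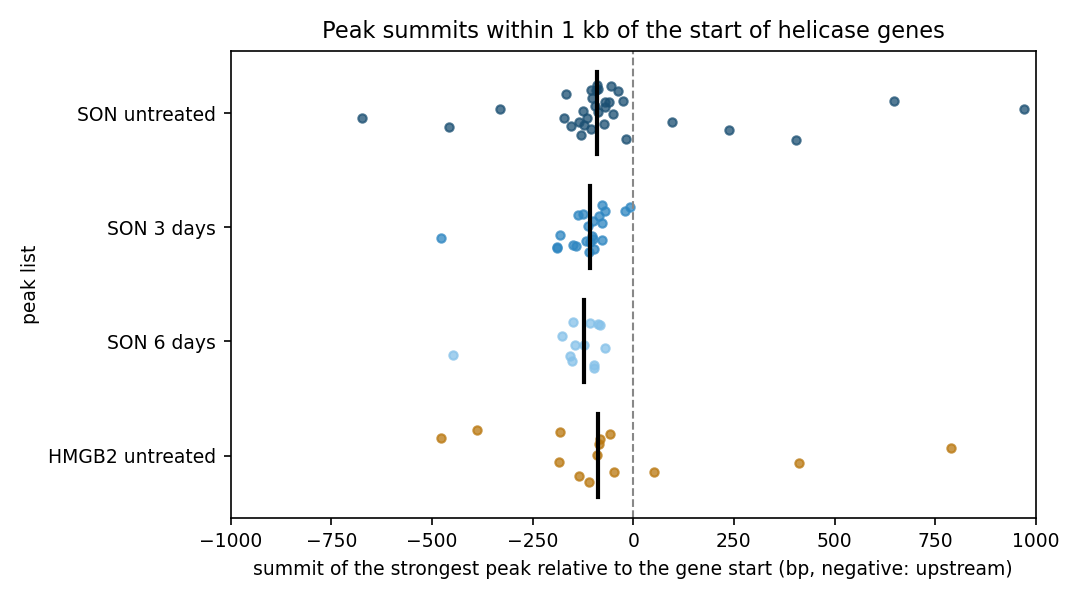
Distance in bp of the summit of each gene's strongest peak from the gene start, for the DDX and DHX genes with a summit within 1 kb, by peak list; each point is a gene and black bars are medians. The 3-day and 6-day SON summits all lie left of the dashed line at the start.

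Several peaks also lay at the start of a neighbour, and the gene that goes with them cannot be told from position. Of the 66 untreated SON peaks at members, 31 were within 5 kb of another protein-coding gene and 19 within 1 kb of its start. Of the 38 at the member's own start, 12 were also within 1 kb of another start. At 4 members with a table start, an untreated peak lay within 1 kb of a neighbour's start and not of their own. These were DDX19B beside AARS1, DDX21 beside KIFBP, DDX5 beside POLG2 and DHX32 beside FANK1.

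HMGB2 peaks at the family mostly lay on SON peaks of untreated cells. Of the 26 HMGB2 peaks, 20 (76.9%) overlapped an untreated SON peak, 18 (69.2%) a 3-day and 10 (38.5%) a 6-day SON peak. The shares of all HMGB2 peaks, at genes or away from them, were 62.3%, 44.1% and 23.5%. The 6 member peaks that met no untreated SON peak were at DDX5 (3 of them), DDX17, DDX3X and DHX58. Counted by gene, 94.7% of members with an HMGB2 peak also carried an untreated SON peak, against 93.0% of all such genes. For the 3-day list these shares were 89.5% and 76.6%, and for the 6-day list 52.6% and 46.9%. A peak in all 4 lists was present at 10 members (19.2%, all genes 10.6%): DDX17, DDX39A, DDX39B, DDX41, DDX42, DHX8, DHX15 and DHX38 of the spliceosome list, and DDX50 and DDX52. Keeping SON peaks of global IDR up to 0.05, no member was left in all 4 lists (all genes 3.0%).

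Each SON list holds values of 2 replicates for every peak. Of all peaks, 56.0% in the untreated, 28.9% in the 3-day and 9.47% in the 6-day list had equal values in both. Whether the replicates share reads is not stated, so neither these values nor the IDR can be read as spread between separate cultures. Of the 66 untreated peaks at members, 40 (60.6%) had equal values in the replicates, and none differed by more than 2-fold, with a median ratio of 1.21 among those that differed. Of the 42 peaks at 3 days, 10 had the same value, replicate 2 was higher at 27 (64.3%, all peaks of the list 56.3%), and 12 (28.6%, all peaks 17.7%) differed by more than 2-fold. At each of these 12 replicate 2 was the higher. The largest ratio, 3.42, was at DDX25, with 5.64 against 19.3. The peak of DHX34, the strongest of the family at 3 days, had 53.1 against 145, and that of DDX10 40.5 against 107. Of the 19 peaks at 6 days, 1 had the same value, either replicate was the higher at 9, and the largest ratio was 1.66. The global IDR was at most 0.05 at 50 of the 66 untreated peaks (75.8%, all peaks 59.7%), 22 of the 42 at 3 days (52.4%, all peaks 41.4%) and 3 of the 19 at 6 days (15.8%, all peaks 15%).

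**Figure D5:**
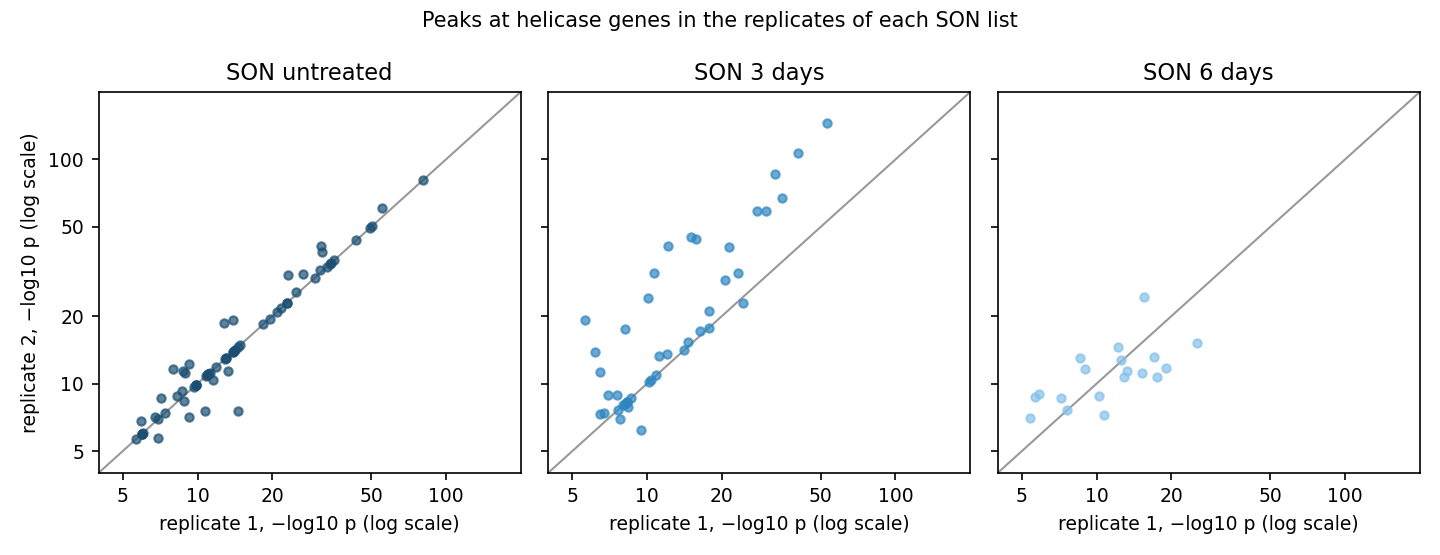
The −log10 p of replicate 2 against that of replicate 1 for each SON peak at the DDX and DHX genes, on log axes, with a panel per list; the line marks equal values. Most untreated points lie on the line, and 27 of 42 points at 3 days lie above it.

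Related helicases that the symbol rule does not take were read from a list of 16 genes. Of these, 11 had a SON peak in untreated cells (68.8%, all genes 57.1%), 7 at 3 days (43.8%, all genes 41.0%) and 5 at 6 days (31.2%, all genes 21.5%). HMGB2 peaks were present at 5 (31.2%, all genes 23.3%), and each share of all genes lay inside the interval of the list. EIF4A1, the helicase of translation initiation, had SON peaks of 42.4, 28 and 20.9 (rank 216 at 6 days) and 3 HMGB2 peaks of up to 18.4. EIF4A3, the anchor of the exon junction complex, had 48.4, 17.5 and 7.71 and an HMGB2 peak of 7.74, and SUPV3L1, a mitochondrial RNA helicase, had 22.5, 10.4 and 6.78 with an HMGB2 peak of 40.1 (rank 92). SNRNP200, the spliceosome helicase that unwinds U4 from U6, had no peak in any list, nor had EIF4A2, IFIH1, TDRD9 and TDRD12.

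G-patch proteins, the cofactors that bind DEAH helicases, were a list of 22 genes, SON among them. All 22 carried a SON peak in untreated cells (100%, 84.6 to 100%, all genes 57.1%), and 14 did at 3 days (63.6%, all genes 41.0%). A 6-day SON peak was present at 4 (18.2%, 5.19 to 40.3%) and an HMGB2 peak at 3 (13.6%, 2.91 to 34.9%). The 6-day and HMGB2 shares of this list stood below those of all genes, 21.5% and 23.3%, which lay inside both intervals. The genes with a 6-day peak were RBM17, SUGP2, GPATCH8 and GPANK1, with a −log10 p of 24.6, 18.2, 16.6 and 8.78. RBM17, a regulator of alternative splicing, had SON peaks of 53.7 (rank 408) and 54.9 (rank 252) in untreated cells and at 3 days, and rank 152 at 6 days. TFIP11, which activates DHX15, had 1 untreated SON peak of 7.53 and none later.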

How the data were processed

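Peak lists of 4 of the 6 samples were used, and the other two were not analysed here. Per the submitters' processing notes the tools were bcl2fastq 2.17, Bowtie2, deepTools and MACS2, and the build was hg38. Their settings and the control for peak calling are not given in the sources used here. The authors deposited −log10 p for each peak, and for SON also the −log10 p of each of 2 replicates and the −log10 of the global IDR. Whether these replicates share reads is not stated. For HMGB2 the deposited columns also hold a fold enrichment over background, and the peak names give the q cutoff. The −log10 p of a peak equals that of the lower replicate at 100% of SON peaks.

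Gene spans and starts were taken from RefSeq (GRCh38.p14), where 47 of 52 members had an entry in the promoter table. Summits are the authors' offsets. No table of proteins was used, so the box motif was not searched. The members and lists were chosen with earlier results of these data known. Every member was named. Values in full were given for the 5 strongest in each list, the 8 of highest mean percentile among those in all 4 lists, the 5 strongest found in no later SON list, and those with an HMGB2 peak alone. The overlap step was tested on simulated data and found 100 of 100 planted peaks. Tables were handled in pandas 2.3.3 and numpy 2.4.6 under Python 3.11.15, intervals computed in scipy 1.17.1 and figures drawn with matplotlib 3.10.9. With 1 list per group nothing was tested between conditions. Alternatives changed the window, the assignment, the threshold, the number of peaks and the measure of strength.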

Additional observations from a re-analysis of the deposited data

How the results depend on the processing

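Of 41 values under other settings, 34 stayed within 1.5 times the reported count, or within the interval of the reported median, and 7 did not. With equally many strongest peaks, 20 members carried an untreated SON peak (38.5%, all genes 26.2%). Keeping peaks of global IDR up to 0.05, 21 members carried one at 3 days (40.4%, all genes 24.0%) and 3 at 6 days (5.77%, all genes 5.02%). In all 3 SON lists it was 3 members (5.77%, all genes 4.75%) and in all 4 lists 0 (all genes 3.0%). With the stronger 50% of each list, 4 members carried a peak in all 4 lists (7.69%, all genes 4.46%). At that cut 10 HMGB2 peaks at members overlapped an untreated SON peak. How many member HMGB2 peaks the cut left, and the share over all HMGB2 peaks, were not counted, so the 10 give no share. These alternatives keep fewer peaks by construction. The share of members exceeded that of all genes in 40 of 41 counts, the reported ones included, and the exception was the 0 in all 4 lists. These counts reread the same genes and lists, so they are not independent of each other and are no test of the family. Taking the values of either replicate alone, the median percentile of the strongest untreated SON peak, 70.5 as reported, was 70.2 and 69.1. The counts of genes rest on 1 list per group, from which no replicate could be left out, and the depth that limits each list is unknown. The spliceosome counts by IDR and with equally many strongest peaks were added after seeing the data. No paired analysis was possible because each group has 1 list.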

Other observations

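Pseudogenes named after the family were read in the same way. Of 34 on these chromosomes, 7 had a peak of any list within 5 kb, 6 of them for SON in untreated cells, 4 for SON at 3 days, 3 for SON at 6 days and 1 for HMGB2. The shares of all protein-coding genes were 57.1%, 41.0% and 21.5% for the untreated, 3-day and 6-day SON lists, and 23.3% for HMGB2. Peaks at pseudogenes of other families were not counted, so no share over all pseudogenes is given. At all but DHX40P1 the peaks lay outside the pseudogene itself. The highest −log10 p, at 6 days, was beside DDX11L10, near the end of chromosome 16, from 10249 to 11204 in the untreated list. Its −log10 p was 9.99 there (rank 10968), 11.4 at 3 days (rank 3558) and 24.5 at 6 days (rank 154, global IDR 0.000582). Its replicate values at 3 days were 11.4 and 171. DHX40P1 had SON peaks of 4.84 at 3 days and 5.80 at 6 days and none in untreated cells. Copy number at these places was not tested.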
